A study of Mus musculus with 8 samples.

Results

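Oxidative phosphorylation subunit genes, the nuclear genes for the proteins of respiratory complexes I to IV and of ATP synthase, were followed in mSCC-20 cells, a mouse line of cutaneous squamous cell carcinoma from the FVB/N strain. Members were the gene probes whose name in the scanner files begins as Ndufa, Ndufb, Ndufc, Ndufs or Ndufv with a digit, is Sdha, Sdhb, Sdhc or Sdhd, or begins as Uqcr, Cox4 to Cox8 or Atp5. This rule found 124 of 39429 probes and 85 of 30139 gene names, each gene being read from its brightest probe. The start of the name set the complex. Of 85 names, 37 went to complex I, 4 to complex II, 8 to complex III, 18 to complex IV and 15 to ATP synthase. Ndufa4 and Ndufa4l2 thus count under complex I, and Cox7a2l under complex IV. The remaining 3 names, Atp5c1-ps, Atp5s and Atp5sl, match the rule without being subunits and are described apart. Counts and medians over all members include these 3, also where the members are called subunit genes. No measured value entered the choice of members, apart from brightness for the choice between probes of a gene.

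Oxidative phosphorylation takes place in the inner mitochondrial membrane. Complex I (NADH dehydrogenase) and complex II (succinate dehydrogenase) pass electrons to ubiquinone, complex III passes them on to cytochrome c, and complex IV (cytochrome c oxidase) gives them to oxygen. Complexes I, III and IV pump protons, and ATP synthase uses the returning protons to make ATP. A few subunits are encoded in mitochondrial DNA and all others in the nucleus, so that assembly needs both genomes. Several subunits of complex IV come in isoforms, one found in most tissues and another in muscle, lung or testis.

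The microRNA arrays held RNA of cells transfected with miR-193b-3p (2 arrays) or with miR-365a-3p (2 arrays), and the others held RNA of cells transfected with the control microRNA miR-NC (NC, 4 arrays). The labels give an amount of 0.2 µg for both miR-193b arrays and 2 of the NC arrays, called here the 0.2 µg set, and of 0.6 µg for both miR-365a arrays and the other 2 NC arrays, the 0.6 µg set. What was weighed is not stated there. Each microRNA was set against the pair of NC arrays with the same amount. No array thus serves in both comparisons, but microRNA and amount cannot be told apart when the microRNAs are set against each other. The series text names the microRNAs only. Their mature sequences in RefSeq (GRCm38.p6) are shown because they are the molecules whose effect was measured, with the seed, bases 2 to 8, in capitals. The microRNA miR-193b-3p is encoded at chr16:13449570-13449591 (plus strand). The sequence listed as miR-365-3p is encoded at chr16:13453895-13453916 and at chr11:79726467-79726488 (both plus strand).
mmu-miR-193b-3p: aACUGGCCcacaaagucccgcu
mmu-miR-365-3p: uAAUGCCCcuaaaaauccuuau
The seeds differ.

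Levels are given as log2 of the background-subtracted signal relative to the 75th percentile of the gene spots of the same array, here called the log2 level. A difference is a mean log2 level on microRNA arrays minus that on NC arrays, with its standard error (SE) from 1 limma model of all 8 arrays (n = 2 against 2). The threshold for a call was an adjusted p under 0.05 (limma, Benjamini-Hochberg adjustment over 17855 tested genes). Gene spots well above background made up 51.4% to 54.6% in the 0.2 µg set and 58.9% to 62.1% in the 0.6 µg set, 0 were saturated, and the RNA integrity number in the labels was 10 throughout. Slide 1 held miR-193b replicate 1 and NC replicate 1 of the 0.2 µg set, slides 2 and 3 held NC replicate 2 and miR-193b replicate 2, and slide 4 held the whole 0.6 µg set. Whether replicates came from separate cultures is not in the labels, and the p values speak for the spread among these arrays alone. Of 12 keratinocyte markers, 12 were well above background on all 8 arrays, against 1 of 6 fibroblast markers (Pdgfra), 3 of 6 leukocyte markers (Cd3e, Itgam and Csf1r), 2 of 6 endothelial markers (Kdr and Esam) and 2 of 5 melanocyte markers (Mitf and Mlana). The defining genes Col3a1, Dcn and Lum (fibroblasts), Lyz2 (myeloid leukocytes), Cdh5 and Tek (endothelium) and Dct (melanocytes) were so on no array. In such bulk RNA, fewer cells with a transcript and less of it per cell cannot be told apart.

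The subunit genes were among the most strongly detected genes of these cells. Of the 85, 80 were well above background on all 8 arrays and 81 entered the test, 56 of them in the brightest of 10 equal groups of the 17855 genes by signal. Left out of the test were Cox6a2, Cox7b2, Cox8b and Cox8c, forms of complex IV subunits known from muscle or testis. Cox7b2, Cox8b and Cox8c were well above background on no array, and Cox6a2 on 3 of 8. Ndufa4l2, a paralog of Ndufa4 that is induced by low oxygen, was well above background on the 4 arrays of the 0.6 µg set and on none of the 0.2 µg set.

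After miR-193b most subunit genes lay slightly above NC, and few passed the test. Of the 81 members, 2 were called (2.47%), where 2.92% of all genes were called. One rose, the complex IV gene Cox7a1 (1.75% of all genes rose), and one fell, the ATP synthase gene Atp5f1 (1.17% of all genes fell). The median log2 difference of the members was 0.25, with quartiles of 0.10 and 0.32, against a median of 0.05 over all genes. The difference was above 0 in 72 members (88.9%), against 55.6% of all genes. Both miR-193b arrays lay above both NC arrays in 42 members (51.9%), against 30.0% of all genes, and below them in 3 members (3.70%), Atp5f1, Cox4i2 and Atp5c1-ps, against 22.5%. At an unadjusted p under 0.05, 8 members were higher (9.88%, against 12.5% of all genes) and 1 was lower (1.23%, against 8.94%). Ndufa4l2, well above background on no array of this set, is counted among the 72 and the 42. The share of members called thus lay near that of all genes.

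**Figure D1:**
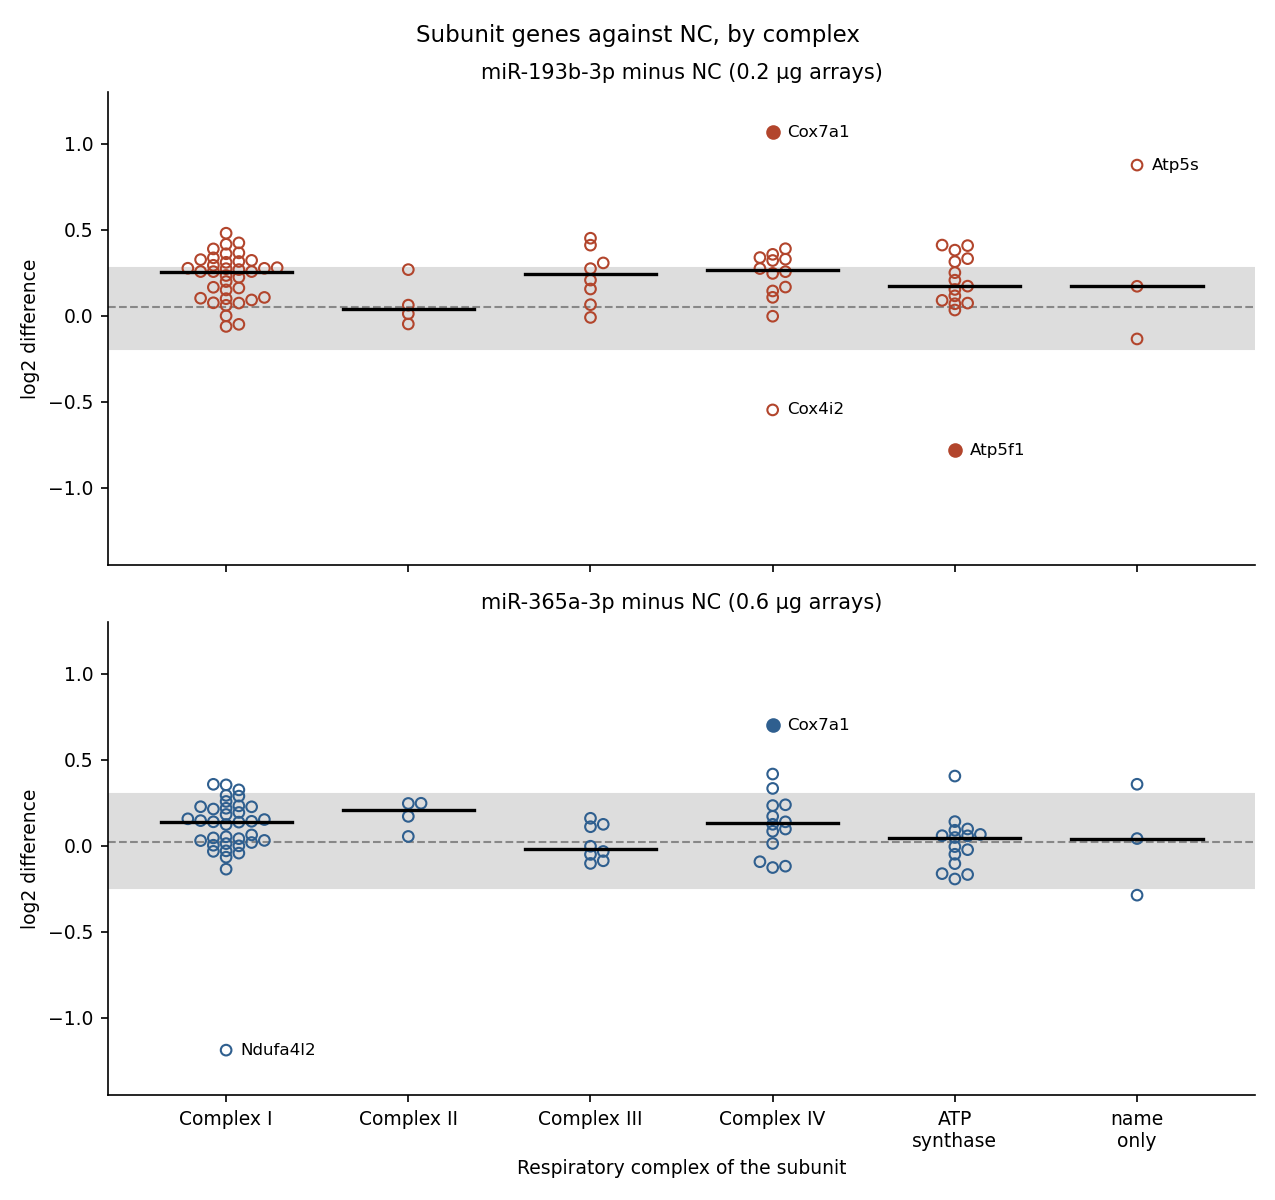
Log2 difference of 80 of the 81 tested members from NC after miR-193b (upper panel, red) and after miR-365a (lower panel, blue), by respiratory complex. Filled points passed the test at an adjusted p under 0.05, black bars are medians of all tested members of a complex, and the grey band with its dashed line gives the quartiles and median of all 17855 tested genes. In the upper panel the members gather above the dashed line, with Cox7a1 (1.07) and Atp5f1 (-0.78) apart from them, and in the lower panel they lie nearer to it.

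The size of this shift depended on the NC arrays. The median log2 level of the 81 members was 4.82 and 4.96 on the miR-193b arrays, against 4.46 and 4.83 on the NC arrays of the set. NC replicate 1 stood apart, being the lowest of the 4 arrays for 68 of the 81 members (84.0%, against 37.0% of all genes). The highest array was miR-193b replicate 2, for 64 members (79.0%, against 32.8%). Without NC replicate 1 the median difference of the members was 0.09, against 0.01 over all genes, and without NC replicate 2 it was 0.38, against 0.08. Within slide 1 the member median was 0.30 (74 of 81 above 0), and across slides 2 and 3 it was 0.15 (68 of 81 above 0). In the brightest of the 10 groups by signal the 56 members had a median of 0.27, against 0.17 for all genes there, so bright genes in general also lay above 0. Under quantile normalization the median was 0.12 for the members and -0.01 for all genes, and in the authors' deposited log2 values 0.10 and -0.01.

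**Figure D2:**
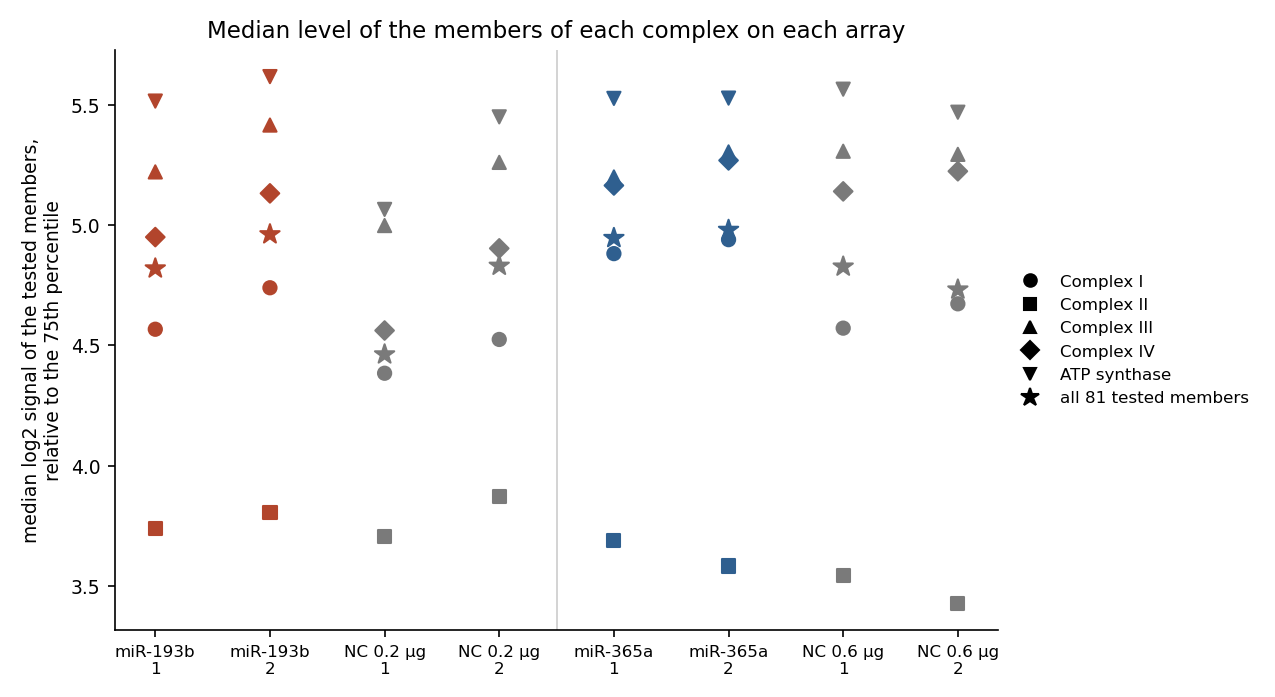
Median log2 level of the tested members of each complex (symbols), relative to the array's 75th percentile, on each of the 8 arrays. In the 0.2 µg set (left), NC replicate 1 had the lowest median of the 4 arrays for all 81 members together (4.46) and for each complex. In the 0.6 µg set (right), the medians of all members were 4.95 and 4.98 on the miR-365a arrays and 4.83 and 4.73 on the NC arrays.

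After miR-365a few of the subunit genes passed the test. Of the 81 members, 2 were called (2.47%), where 15.8% of all genes were called. Both rose, Cox7a1 among them (7.81% of all genes rose), and 0 fell (8.04% of all genes fell). The limma test at an unadjusted p under 0.05 gave 6 higher members (7.41%, against 16.7% of all genes) and 0 lower ones (14.6% of all genes). Their median log2 difference was 0.09, against 0.02 over all genes, and 58 members were above 0 (71.6%, against 53.0%). Both miR-365a arrays lay above both NC arrays in 39 members (48.1%, against 33.7% of all genes). They lay below in 8 members (9.88%, against 27.8%), which were Atp5d, Atp5g1, Atp5g3, Atp5j2, Atp5sl, Cox7a2, Ndufb3 and Uqcrb. The highest of the 4 arrays was miR-365a replicate 2 for 44 members (54.3%, against 30.6% of all genes), and the lowest was NC replicate 2 of the set for 36 (44.4%, against 21.9%).

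Complex I, the largest of the complexes, had 37 genes by name, all of them tested. After miR-193b, 34 of the 37 were above 0 (Ndufa4l2, at background there, among them), with a median of 0.26, and none was called. Their differences ran from -0.06 in Ndufs7, an iron-sulfur subunit near the ubiquinone site, to 0.48 in the accessory subunit gene Ndufa5. Ndufs7 had log2 levels of 3.87 and 4.02 on the miR-193b arrays, against 3.94 and 4.07 on the NC arrays. Ndufa5 had 5.77 and 6.15 on the miR-193b arrays, against 5.20 and 5.76 on the NC arrays (adjusted p = 0.279 by limma). The Ndufs7 arrays overlapped, and those of Ndufa5 were apart by a narrow margin only.

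After miR-365a complex I had a median of 0.14, with 30 of 37 genes above 0. The lowest was Ndufa4l2, at -2.95 and -4.55 on the miR-365a arrays, against -1.81 and -3.31 on the NC arrays. These dim arrays overlapped, and the difference of -1.19 was not called (adjusted p = 0.266). On the 0.2 µg arrays Ndufa4l2 was not well above background, so no difference is given, but it stays in the counts and medians of the members. Its paralog Ndufa4 encodes a subunit now usually placed in complex IV. Ndufa4 had log2 levels of 6.29 and 6.35 on the miR-365a arrays, against 6.17 and 6.18 on the NC arrays, a difference of 0.15. It had 6.29 and 6.50 on the miR-193b arrays, against 5.82 and 6.25 on the NC arrays, a difference of 0.36. In both sets the microRNA arrays lay above NC for Ndufa4, and neither difference was called.

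Ndufa11 encodes an accessory subunit of the membrane arm. It had an unadjusted p under 0.05 (limma) and a positive difference in both comparisons, as did Cox7a1 and Cox7a2l. After miR-193b this held for 9.88% of the members, against 12.5% of all genes. After miR-365a it held for 7.41%, against 16.7%. The share of all genes for which it held in both was not counted. Ndufa11 had 3.00 and 3.12 on the miR-193b arrays, against 2.64 and 2.81 on the NC arrays. It had 3.52 and 3.68 on the miR-365a arrays, against 3.22 and 3.26 on theirs. Both microRNA arrays stood above both NC arrays each time, with differences of 0.34 (adjusted p = 0.195) and 0.36 (adjusted p = 0.109), and neither was called. Its promoter in RefSeq (GRCm38.p6, chr17:56717512-56717811, plus strand, from 250 bases before to 50 after the start) holds a match to the motif of NRF1, a transcription factor known for its sites in respiratory genes. This promoter was picked after the values were seen. Of the 17 subunit genes with such a match, Ndufa11 had the smallest p after miR-193b (limma). The match was thus a condition of the choice and not a result. It is in capitals.
Ndufa11: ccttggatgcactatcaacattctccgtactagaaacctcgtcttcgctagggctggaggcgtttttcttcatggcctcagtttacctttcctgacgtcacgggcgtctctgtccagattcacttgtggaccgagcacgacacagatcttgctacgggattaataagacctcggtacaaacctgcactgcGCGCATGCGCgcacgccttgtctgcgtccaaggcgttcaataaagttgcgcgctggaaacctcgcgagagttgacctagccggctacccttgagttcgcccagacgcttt

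Complex II is made of 4 subunits, all encoded in the nucleus, and is also an enzyme of the tricarboxylic acid cycle. After miR-193b its genes had a median difference of 0.04 (-0.01 under quantile normalization and in the deposited values), below the member median, and none was called. Sdha, the flavoprotein, had log2 levels of 3.40 and 3.46 on the miR-193b arrays, against 3.31 and 3.53 on the NC arrays. Sdhb, the iron-sulfur subunit, had 4.82 and 4.93, against 4.46 and 4.75 on the NC arrays, and was the one whose arrays did not overlap (difference 0.27). The membrane anchor genes overlapped with NC. Sdhc had 2.43 and 2.54 on the miR-193b arrays, against 2.29 and 2.56 on the NC arrays. Sdhd had 4.07 and 4.15 on the miR-193b arrays, against 4.10 and 4.22 on the NC arrays.

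After miR-365a all 4 genes of complex II were above 0, with a median of 0.21, and none was called. Sdha had 3.30 and 3.19 on the miR-365a arrays, against 3.07 and 2.92 on the NC arrays (difference 0.25). Sdhb had 4.74 and 4.73 on the miR-365a arrays, against 4.64 and 4.50 on the NC arrays. These arrays were apart for Sdha and Sdhb, and for Sdhc as well. Sdhc had 2.50 and 2.39 on the miR-365a arrays, against 2.30 and 2.11 on the NC arrays (difference 0.25). Sdhd had 4.08 and 3.98 on the miR-365a arrays, against 4.02 and 3.93 on the NC arrays, which overlapped.

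Complex III was covered by 8 genes, which had a median difference of 0.24 after miR-193b (7 of 8 above 0) and of -0.02 after miR-365a (3 of 8 above 0), which was 0.01 under quantile normalization and in the deposited values. None was called in either comparison. The widest difference was that of Uqcr11, a small subunit, with 5.89 and 6.21 on the miR-193b arrays, against 5.37 and 5.82 on the NC arrays (0.45, adjusted p = 0.260). The least was that of Uqcrc1, a core protein, with 2.29 and 2.45 on the miR-193b arrays, against 2.40 and 2.36 on the NC arrays. Uqcr11 arrays stood apart and Uqcrc1 arrays overlapped. In the 0.6 µg set, Uqcrb, a subunit at the ubiquinone site, had 4.64 and 4.60 on the miR-365a arrays, against 4.74 and 4.71 on the NC arrays. Both miR-365a arrays were lower, by 0.10 in the mean (adjusted p = 0.814). There Uqcr11 was the highest, with 6.41 and 6.68 on the miR-365a arrays, against 6.34 and 6.42 on the NC arrays, which overlapped.

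Complex IV held Cox7a1, the one subunit gene that rose after both microRNAs. Cox7a1 encodes the form of subunit VIIa best known from heart and skeletal muscle. Its log2 levels were 1.29 and 1.59 on the miR-193b arrays, against 0.24 and 0.51 on the NC arrays of the 0.2 µg set. They were 1.40 and 1.43 on the miR-365a arrays, against 0.69 and 0.74 on the NC arrays of the 0.6 µg set. All 4 microRNA arrays stood above all 4 NC arrays. Cox7a1 rose 2.09-fold after miR-193b (difference 1.07 ± 0.15, SE, adjusted p = 0.0301 by limma), with 1.05 within slide 1 and 1.08 across slides 2 and 3. After miR-365a it rose 1.63-fold (0.70 ± 0.15, adjusted p = 0.0298). The effects of the microRNAs on Cox7a1 were not called different (miR-365a minus miR-193b -0.37 ± 0.21, adjusted p = 0.404). The array has 1 probe for this gene, on mm9 at chromosome 7 between 30970337 and 30970948. The miR-193b call was lost when miR-193b replicate 1 (adjusted p = 0.0628) or replicate 2 (0.111), NC replicate 1 of its set (0.0906) or any array of the 0.6 µg set (0.0628 to 0.0755) was left out. The miR-365a call was lost when any array of its own set was left out (0.0927 to 0.137).

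**Figure D3:**
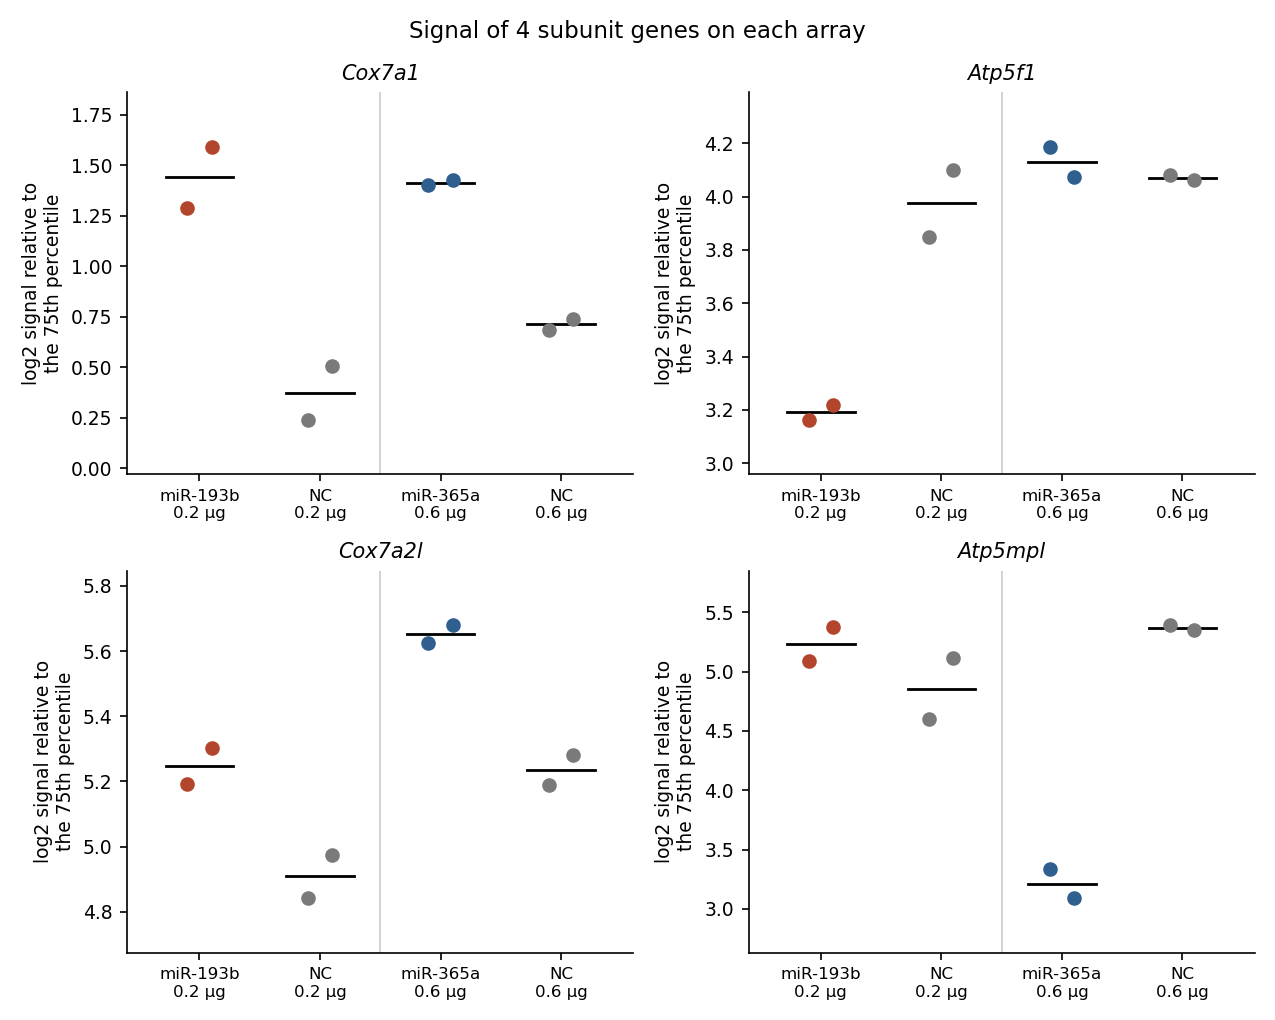
Log2 level of Cox7a1, Atp5f1, Cox7a2l and Atp5mpl on each array (points), relative to the array's 75th percentile, with the mean of each pair as a bar and each panel on its own scale. Cox7a1 was higher on all 4 microRNA arrays, Atp5f1 was lower on the miR-193b arrays only (3.16 and 3.22, against 3.85 and 4.10 on the NC arrays), Cox7a2l was above NC in both sets without a call, and Atp5mpl was lowest on the miR-365a arrays.

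Because Cox7a1 is a muscle isoform, markers of striated muscle were read beside it. Of 8 such markers, Acta1 and Tnni2 were well above background on all 8 arrays and the myosin genes Myh1 and Myh2 on none. The others, with the myosin gene Myh4, were so on some arrays. The summed level of the list, on a linear scale relative to the 75th percentile, was 9.17 to 11.3 on the miR-193b arrays, against 11.1 to 11.5 on the NC arrays. In the 0.6 µg set it was 6.96 to 9.36 on the miR-365a arrays, against 8.75 to 14.5 on the NC arrays. The sum was thus not higher where Cox7a1 was higher, with ranges that overlapped in both sets. Single markers were not compared, and the reason for the rise of Cox7a1 was not tested. The Cox7a1 promoter in RefSeq (GRCm38.p6, chr7:30183921-30184220, plus strand) is shown because the gene rose in both comparisons. None of the 5 motifs searched, spelled out further on, was found in it on either strand, so it has no capitals.
Cox7a1: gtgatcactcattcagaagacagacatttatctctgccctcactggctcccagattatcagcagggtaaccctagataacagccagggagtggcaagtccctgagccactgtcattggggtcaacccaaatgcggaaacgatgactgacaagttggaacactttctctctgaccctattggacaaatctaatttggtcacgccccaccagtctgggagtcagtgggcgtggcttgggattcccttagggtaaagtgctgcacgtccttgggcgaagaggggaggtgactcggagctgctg

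The other forms of subunit VIIa were not called. Cox7a2, the form of most tissues, had 4.71 and 4.96 on the miR-193b arrays, against 4.29 and 4.83 on the NC arrays (difference 0.27). It had 4.95 and 5.06 on the miR-365a arrays, against 5.09 and 5.17 on the NC arrays, and was the lowest gene of complex IV there (-0.13). Cox7a2 thus overlapped with NC in the 0.2 µg set and lay below it in the 0.6 µg set. Cox7a2l, a related protein that joins complexes III and IV into supercomplexes, had 5.19 and 5.30 on the miR-193b arrays, against 4.84 and 4.98 on the NC arrays. It had 5.62 and 5.68 on the miR-365a arrays, against 5.19 and 5.28 on the NC arrays. Both microRNA arrays were higher in each set, with differences of 0.34 ± 0.11 (adjusted p = 0.166) and 0.42 ± 0.11 (adjusted p = 0.0569). Its 3 probes gave 0.21 to 0.34 after miR-193b and 0.41 to 0.54 after miR-365a. Cox7a2l passed the test after miR-365a under 6 of the 17 alternative settings (adjusted p of 0.0208 to 0.0412 in those).

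Cox4i2, the form of subunit IV known from lung and from low oxygen, was the lowest complex IV gene after miR-193b. It had -3.61 and -3.51 on the miR-193b arrays, against -2.61 and -3.41 on the NC arrays, a difference of -0.55 ± 0.26 (adjusted p = 0.278). Both miR-193b arrays lay below, the nearer NC array by 0.10 only. After miR-365a it had -3.34 and -3.27, against -3.28 and -3.09 on the NC arrays, which overlapped. Cox4i1, the form of most tissues, had 6.54 and 6.58 on the miR-193b arrays, against 6.48 and 6.43 on the NC arrays. It had 6.95 and 7.11 on the miR-365a arrays, against 6.89 and 6.90 on the NC arrays. Cox4i1 lay above NC in both sets by small margins, with differences of 0.11 and 0.14, neither called.

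The remaining isoform genes of complex IV were not called either. Cox6a1 had 7.42 and 7.57 on the miR-193b arrays, against 7.03 and 7.32 on the NC arrays, and 7.38 and 7.60 on the miR-365a arrays, against 7.38 and 7.43 on theirs. Cox6b1, a subunit on the outer face, had 3.37 and 3.52 on the miR-193b arrays, against 2.81 and 3.30 on the NC arrays, and 3.65 and 3.72 on the miR-365a arrays, against 3.34 and 3.36 on theirs. Cox6a1 stood apart from NC in the 0.2 µg set only, and Cox6b1 in both (differences 0.39 and 0.33). Cox6b2, its testis form, had -4.09 and -4.10 on the miR-193b arrays, against -4.10 and -4.08 on the NC arrays, and -3.18 and -2.90 on the miR-365a arrays, against -3.21 and -2.89 on theirs. Cox7b had 5.30 and 5.57 on the miR-193b arrays, against 4.999 and 5.36 on the NC arrays, and 5.68 and 5.76 on the miR-365a arrays, against 5.54 and 5.56 on theirs. Cox8a had 6.83 and 7.08 on the miR-193b arrays, against 6.51 and 6.75 on the NC arrays, and 6.995 and 7.26 on the miR-365a arrays, against 7.19 and 7.25 on theirs. Cox6b2 lay level with NC in both sets, while Cox7b stood above it in the 0.6 µg set and Cox8a in the 0.2 µg set. Of the 14 tested complex IV genes, 12 were above 0 after miR-193b (median 0.27) and 11 after miR-365a (median 0.13).

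ATP synthase held the one member of the rule that fell, Atp5f1 (now Atp5pb). Atp5f1 encodes subunit b of the stalk that holds the catalytic head in place. Its log2 levels were 3.16 and 3.22 on the miR-193b arrays, against 3.85 and 4.10 on the NC arrays of the 0.2 µg set. They were 4.19 and 4.07 on the miR-365a arrays, against 4.08 and 4.06 on the NC arrays of the 0.6 µg set. Both miR-193b arrays lay below the 6 others. Atp5f1 fell 1.72-fold after miR-193b (difference -0.78 ± 0.13, SE, adjusted p = 0.0383 by limma), with -0.69 within slide 1 and -0.88 across slides 2 and 3. After miR-365a its difference was 0.06 ± 0.13 (adjusted p = 0.828). A second probe gave -0.60 after miR-193b. The difference between the effects was 0.84 ± 0.18 (miR-365a minus miR-193b, adjusted p = 0.0603), which misses the threshold and passed it under 6 of the 16 alternative settings. The call after miR-193b was lost when any of the 8 arrays was left out (adjusted p from 0.0619 to 0.137). The probe lies on mm9 at chromosome 3, 105745841 to 105745782.

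The Atp5f1 promoter in RefSeq (GRCm38.p6, chr3:105959214-105959513, minus strand) is shown because this is the member of the rule that fell. Capitals mark an E-box and the reverse complement of the motif of YY1, a transcription factor.
Atp5f1: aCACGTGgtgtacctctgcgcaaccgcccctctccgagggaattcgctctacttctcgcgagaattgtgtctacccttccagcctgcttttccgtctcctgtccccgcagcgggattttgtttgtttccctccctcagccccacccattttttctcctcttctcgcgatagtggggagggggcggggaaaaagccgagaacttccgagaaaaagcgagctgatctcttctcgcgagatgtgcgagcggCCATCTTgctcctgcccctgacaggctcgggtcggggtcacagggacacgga

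Among the other 14 genes of ATP synthase, all were above 0 after miR-193b and none was called. The highest was Atp5h, for subunit d of the same stalk, with 6.33 and 6.47 on the miR-193b arrays, against 5.75 and 6.22 on the NC arrays (difference 0.41, adjusted p = 0.251). Its arrays stood apart from NC, by 0.11 from the nearer one. Subunit d and subunit b thus lay on opposite sides of NC. After miR-365a the median of the 15 genes was 0.05 and 8 were above 0. The lowest was Atp5j2, for subunit f, with 5.34 and 5.41 on the miR-365a arrays, against 5.56 and 5.57 on the NC arrays (-0.19, adjusted p = 0.588). Its brightest probe carries a position on mm9 chromosome 9, so RNA of a copy there may be read too. The second probe of Atp5j2 gave -0.21. The highest was Atp5a1, for the catalytic-head subunit alpha, with 4.89 and 4.93 on the miR-365a arrays, against 4.51 and 4.50 on the NC arrays (0.40 ± 0.13, adjusted p = 0.0856). Both pairs stood apart from NC, on opposite sides, and neither was called.

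Atp5g1, Atp5g2 and Atp5g3 encode the same ring subunit c through different precursors. Atp5g1 had 6.41 and 6.42 on the miR-193b arrays, against 6.26 and 6.43 on the NC arrays, and 6.34 and 6.51 on the miR-365a arrays, against 6.52 and 6.54 on theirs. Atp5g2 had 6.08 and 6.29 on the miR-193b arrays, against 5.95 and 6.25 on the NC arrays, and 6.19 and 6.32 on the miR-365a arrays, against 6.31 and 6.20 on theirs. Atp5g3 had 6.48 and 6.49 on the miR-193b arrays, against 5.92 and 6.39 on the NC arrays, and 6.33 and 6.44 on the miR-365a arrays, against 6.54 and 6.56 on theirs. Atp5g3 lay above NC after miR-193b and below it after miR-365a, Atp5g1 below it after miR-365a only, and Atp5g2 overlapped throughout. None of the 3 was called.

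The 3 names that match the rule without being subunits were not called. Atp5s (now Dmac2l) had -2.48 and -1.59 on the miR-193b arrays, against -2.996 and -2.82 on the NC arrays, a difference of 0.88 ± 0.28 (adjusted p = 0.147). It had -2.51 and -2.60 on the miR-365a arrays, against -2.92 and -2.90 on the NC arrays. Both sets stood above NC, with a wide gap between the miR-193b arrays. Atp5sl (now Dmac2), whose protein takes part in building complex I, had 1.46 and 1.39 on the miR-193b arrays, against 1.17 and 1.34 on the NC arrays. It had 0.64 and 0.39 on the miR-365a arrays, against 0.96 and 0.64 on the NC arrays, a difference of -0.29. The pseudogene Atp5c1-ps had 2.47 and 2.53 on the miR-193b arrays, against 2.66 and 2.62 on the NC arrays, and 2.82 and 2.70 on the miR-365a arrays, against 2.83 and 2.61 on theirs. Its probe may also read Atp5c1, of which it is a copy.

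Several probes were present for 28 of the tested members. Their differences had the same sign in all but 4 genes after miR-193b and all but 7 after miR-365a, and no gene had probes of opposite sign that both passed an unadjusted p under 0.05. The median gap between the highest and lowest probe of a gene was 0.13 after miR-193b and 0.06 after miR-365a. Atp5l, for subunit g, had the most probes, 6, which gave 0.37 to 0.45 after miR-193b and 0.05 to 0.10 after miR-365a. Its brightest probe carries a position on mm9 chromosome X, so RNA of a copy there may be read too. The widest gap was in the complex I gene Ndufv3, whose 3 probes gave -0.004 to 1.003 after miR-365a. In a limma fit of single probes, the probe at 1.003 passed the threshold (adjusted p = 0.0107). The brightest probe, from which Ndufv3 was read, gave 0.29 there and did not (adjusted p = 0.209).

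No member was called for a difference between the effects of the microRNAs, where 3.56% of all genes were called (1.13% higher and 2.43% lower, limma). At an unadjusted p under 0.05, 2 members, Atp5f1 among them, were higher after miR-365a than after miR-193b, each relative to its NC (2.47%, against 9.23% of all genes), and 0 members were lower (10.9% of all genes). The median of miR-365a minus miR-193b was -0.10 over the members and -0.02 over all genes.

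Subunits encoded in mitochondrial DNA were read from 13 probes, for the 13 such proteins. All 13 were tested and none was called after either microRNA. At an unadjusted p under 0.05 limma gave ND3 and ND4L after miR-193b, both higher, as were 12.5% of all genes. After miR-193b all 13 were above 0, as were 55.6% of all genes, with differences from 0.11 to 0.66 and a median of 0.23. After miR-365a 9 of 13 were above 0 (53.0% of all genes), from -0.12 to 0.19, with a median of 0.03. The widest was ND6 after miR-193b, at 0.66 ± 0.30 (adjusted p = 0.271). In the files, 6 of these probes carry positions on mm9 chromosome 1 and 7 on the mitochondrial genome, so RNA of nuclear copies may be read too. Medians of the 81 members and of the mitochondrial genes lay close together in each comparison, at 0.25 and 0.23 after miR-193b and at 0.09 and 0.03 after miR-365a. All genes in the brightest of the 10 groups by signal had medians of 0.17 and -0.02. Whether the closeness goes beyond that of bright genes in general was not tested.

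A few subunits carry names in the files that the rule does not catch, and were looked up after the values were seen. Of 5 such genes, Atp5mpl changed and Atp5md, Cyc1, Ndufab1 and Ndufa11b were not called in either comparison. Atp5mpl encodes a small protein bound to ATP synthase. Its log2 levels were 3.33 and 3.09 on the miR-365a arrays, against 5.39 and 5.35 on the NC arrays of the 0.6 µg set. They were 5.09 and 5.37 on the miR-193b arrays, against 4.60 and 5.11 on the NC arrays of the 0.2 µg set. Both miR-365a arrays lay far below the other 6. Atp5mpl fell 4.46-fold after miR-365a (difference -2.16 ± 0.20, SE, adjusted p = 0.00395 by limma), a larger difference than that of any member. After miR-193b its difference was 0.38 ± 0.20 (adjusted p = 0.336). It rests on 1 probe, on mm9 at chromosome 12, 113199668 to 113199609. Cyc1, for the cytochrome c1 of complex III, had 4.71 and 4.64 on the miR-193b arrays, against 5.12 and 4.76 on the NC arrays, both lower (-0.26, adjusted p = 0.380). Atp5md, the neighbour of Atp5mpl in ATP synthase, had 6.001 and 6.15 on the miR-365a arrays, against 5.88 and 5.97 on the NC arrays.

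Genes that build, feed and regulate the complexes were read from 5 further lists. Of 43 tested assembly factors, none was called after miR-193b, where 2.92% of all genes were. After miR-365a 7 rose and 3 fell (15.8% of all genes were called). Cox19, a copper-handling factor of complex IV, had 2.76 and 2.63 on the miR-365a arrays, against 2.01 and 2.01 on the NC arrays, and rose by 0.69 (adjusted p = 0.0137). Uqcc3, a factor of complex III, rose by 0.62 (adjusted p = 0.0239) and Surf1, needed for complex IV, by 0.51 (adjusted p = 0.0266). The 3 that fell were Ndufaf4 (-0.54) and Ndufaf7 (-0.53), factors of complex I, and Sdhaf1 (-0.55), a factor of complex II. The second probe of Ndufaf4 gave -1.24 (adjusted p = 0.00531).

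Among 17 electron carrier and coenzyme Q genes, Coq5 fell after miR-193b and 16 were not called (1.17% of all genes fell). Coq5 encodes a methyltransferase of coenzyme Q synthesis. Its log2 levels were -1.42 and -1.63 on the miR-193b arrays, against -0.44 and -0.68 on the NC arrays, with no overlap (-0.96 ± 0.15, adjusted p = 0.0343). Its second probe gave -0.89. After miR-365a 2 of the 17 were called, where 15.8% of all genes were. Etfdh, which passes electrons from fatty acid oxidation to ubiquinone, rose by 0.61, and Pdss2, of coenzyme Q synthesis, had a difference of -0.66 and fell. In the tricarboxylic acid cycle none of 18 genes was called after miR-193b (2.92% of all genes), and 3 were after miR-365a (15.8% of all genes), a count near the share over all genes. Suclg2, a subunit of succinyl-CoA ligase, had -1.71 and -1.87 on the miR-365a arrays, against 0.43 and 0.31 on the NC arrays. Suclg2 fell 4.47-fold (-2.16 ± 0.12, adjusted p = 0.00240). Dlat (-0.73) fell too and Pdhb (0.57) rose, both genes of the pyruvate dehydrogenase complex.

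Of 17 tested regulators of mitochondrial gene expression, none was called after miR-193b, where 2.92% of all genes were. After miR-365a 3 fell and 1 rose, where 8.04% and 7.81% of all genes did. Nrf1, whose factor binds promoters of respiratory genes, had log2 levels of -0.58 and -0.66 on the miR-365a arrays, against 0.51 and 0.25 on the NC arrays. It fell 2.01-fold (-1.005 ± 0.17, adjusted p = 0.0147), and its other probes gave -0.94 and -0.33. The coactivator gene Pprc1 fell (-0.92), as did the nuclear receptor gene Esrra (-0.68). Tfb1m, for a methyltransferase of mitochondrial ribosomal RNA, had 1.21 and 0.94 on the miR-365a arrays, against 0.36 and -0.33 on the NC arrays, and rose (1.06 ± 0.25, adjusted p = 0.0376). Ppargc1a was well above background on no array and was not tested. Of 9 tested uncouplers and carriers, the adenine nucleotide translocase gene Slc25a5 fell after miR-365a (-0.61), where 8.04% of all genes fell. None of the 9 was called after miR-193b, against 2.92% of all genes.

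**Figure D4:**
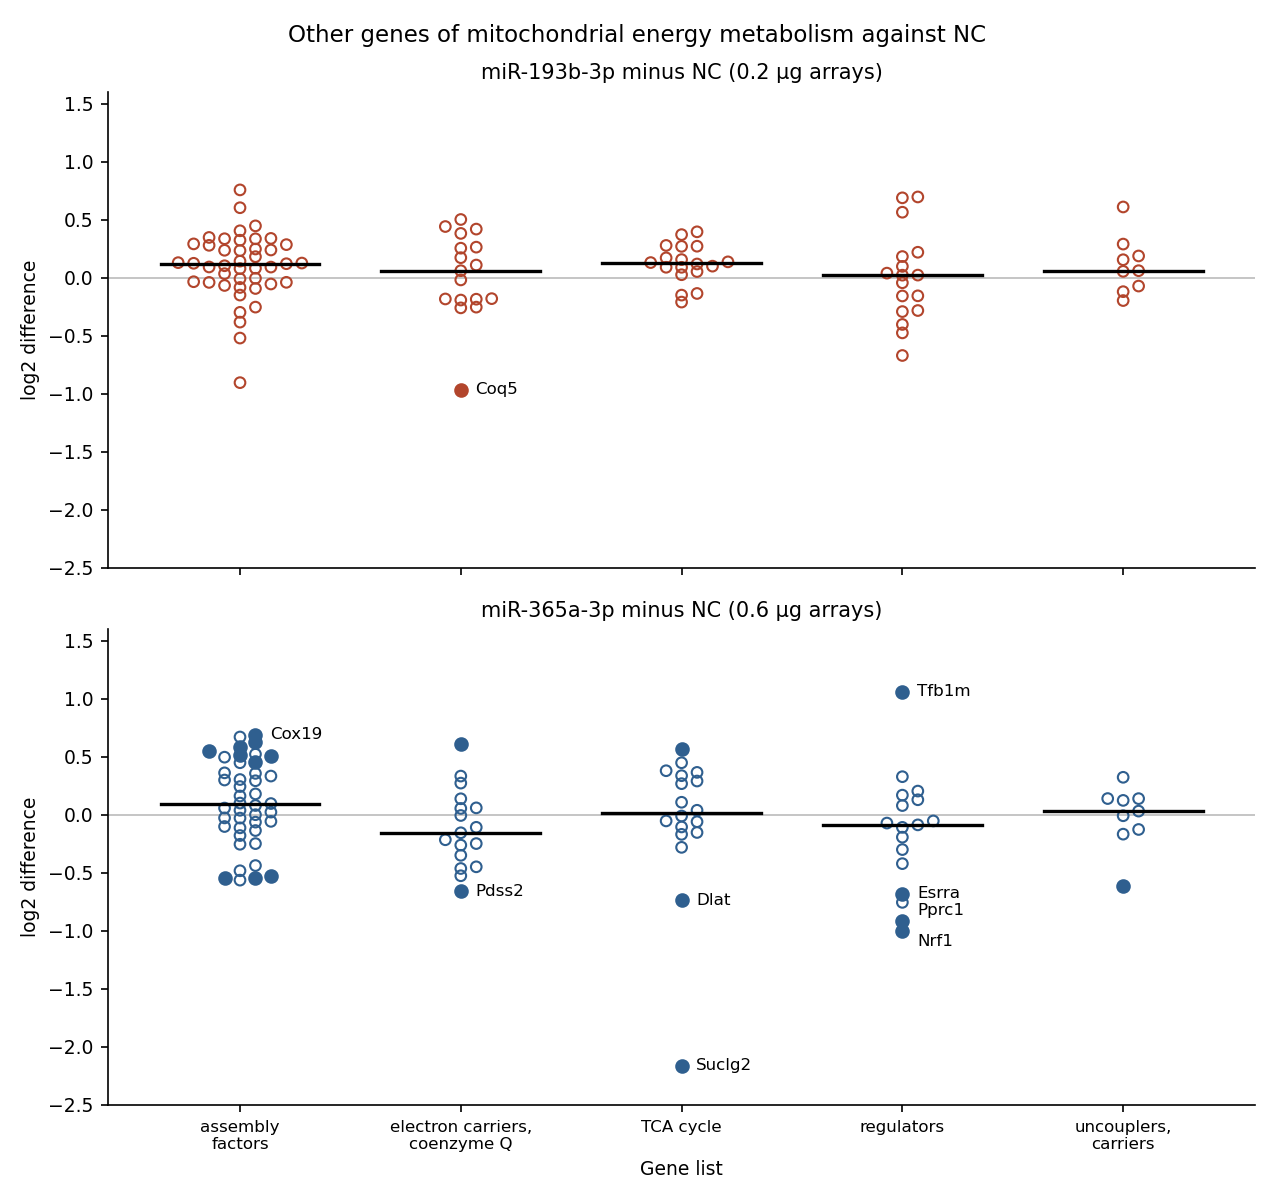
Log2 difference from NC of the tested genes of 5 further lists after miR-193b (upper panel, red) and miR-365a (lower panel, blue). Filled points passed the test at an adjusted p under 0.05, called genes with a difference of 0.65 or more in size are named, and black bars are list medians. Coq5 is the one filled point after miR-193b, and Suclg2 (-2.16) and Nrf1 (-1.005) lie lowest of the called genes after miR-365a.

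Motif matches to factors known from respiratory promoters were counted in the RefSeq promoter windows of GRCm38.p6. A window was found for 67 of the 82 subunit names. On both strands, the NRF1 motif, GCGCA followed by any base and then GCGC, was in 17 of them (25.4%, against 5.19% of 27025 genes) and the ETS motif CCGGAAG, bound by the GABP factor among others, in 16 (23.9%, against 9.93%). The YY1 motif AAGATGG was in 11 (16.4%, against 7.28%) and the oestrogen-related receptor motif AAGGTCA in 8 (11.9%, against 5.38%). An E-box CACGTG was in 6 (8.96%, against 8.09%). Of the subunit genes tested, the 17 with an NRF1 match had a median difference of 0.28 after miR-193b and 0.05 after miR-365a, and the 48 without one had 0.23 and 0.09. With an ETS match (16 genes) the medians were 0.28 and 0.09, and without (49 genes) 0.22 and 0.06. With a YY1 match (11 genes) they were 0.21 and 0.05, and without (54 genes) 0.26 and 0.09. With an oestrogen-related receptor match (8 genes) they were 0.35 and 0.06, and without (57 genes) 0.22 and 0.08. With an E-box (6 genes) they were 0.12 and 0.01, and without (59 genes) 0.26 and 0.09. The widest gaps were those of the receptor motif, higher with a match, and of the E-box, lower with a match, both after miR-193b and in the smallest groups. No test was made between these groups.

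**Figure D5:**
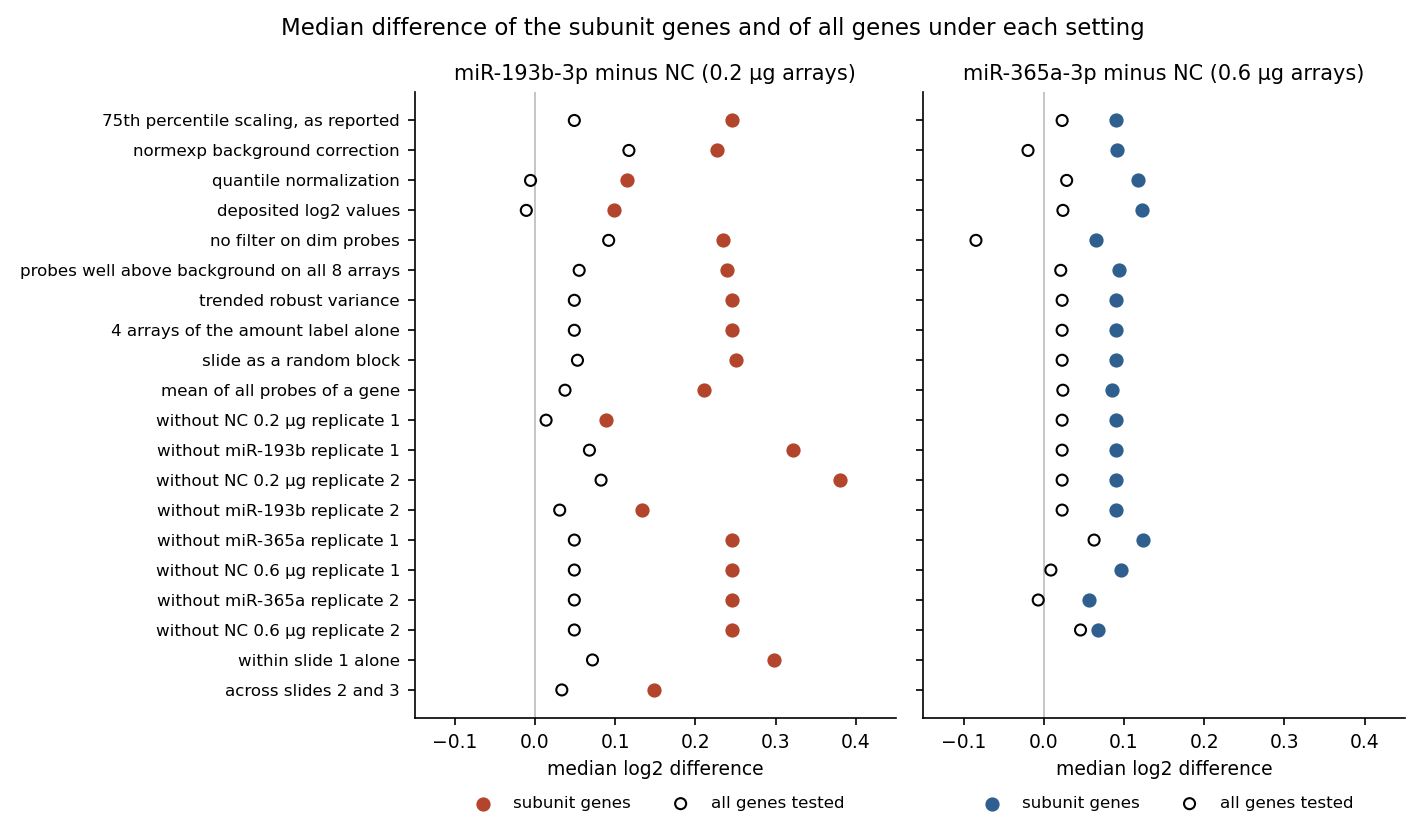
Median log2 difference from NC of the subunit genes (filled points) and of all genes tested (open points) after miR-193b (left, red) and miR-365a (right, blue), under each processing setting (rows). The subunit genes lie right of all genes in every row shown, by 0.07 to 0.30 after miR-193b and by 0.02 to 0.15 after miR-365a. The widest and the narrowest gap after miR-193b are the rows without NC replicate 2 and without NC replicate 1 of the 0.2 µg set.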

How the data were processed

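RNA of 8 mSCC-20 samples was measured on Agilent 1-colour arrays, in 4 groups of 2. The deposited scanner files hold spot intensities made with Agilent Feature Extraction 10.7.3.1, per the file headers, which subtracts background; positions are those of mm9. The authors' deposited table holds normalized log2 values, for which the submitters' processing notes name limma; the background correction behind them is not given in the sources used here. Here, the 75th percentile of an array was subtracted from its log2 processed intensities, control spots were left out, and each gene was read from its brightest probe, and entered the test (17855 of 30139 names) where 1 or more of the groups had it well above background on both arrays. Names were updated by accession or symbol through RefSeq, and 7973 of 39429 probes kept the file's name. One limma 3.58.1 model (R 4.3.3) held amount and both microRNAs, with 4 residual degrees of freedom, and was tested on simulated data. Tables and figures used Python 3.11.15 with pandas 2.3.3 and matplotlib 3.10.9.

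Named with values were the called members, apart from 1 that is not reported here, the highest and lowest of each complex, isoforms and close paralogs, the Sdh genes, and up to 3 genes of each other list. Members, lists and tests were chosen with earlier results of these data known. Alternatives were normexp correction, quantile normalization, the deposited values, other filters on dim probes, trended robust variance, the 4 arrays of a set alone, slide as a random block, the mean of a gene's probes, and leaving out each array. With 2 arrays against 2, an exact permutation test of a single gene cannot go below 0.333, so none was used. The number of arrays limits the precision.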

Additional observations from a re-analysis of the deposited data

Results flagged for a closer look

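The ATP synthase gene Atp5mpl, looked up after its values were seen, differed between the effects of the microRNAs by a test of the difference itself. Its effect of miR-365a minus that of miR-193b was -2.53 ± 0.29 on the log2 scale (SE, adjusted p = 0.0155 by limma, n = 2 arrays a group). Both miR-365a arrays lay below both NC arrays of the 0.6 µg set, and the miR-193b arrays, at 5.09 and 5.37, overlapped with the NC arrays of the 0.2 µg set, at 4.60 and 5.11. Since each microRNA was measured at another labelled amount, amount and microRNA cannot be told apart in this difference. No member of the rule was called for it.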

How the results depend on the processing

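Under the alternatives run, no called value changed direction. The 2 member calls after miR-193b became 0 without a filter on dim probes, 0 from the 4 arrays of the 0.2 µg set alone, where 0 of 17855 genes were called, and 1 (Cox7a1) with the mean of each gene's probes. Leaving out 1 array gave 0 to 1 calls, Cox7a1 without NC replicate 2 of the 0.2 µg set and Atp5s, not called otherwise, without miR-193b replicate 1. The 2 calls after miR-365a became 5 in the deposited values (adding Atp5a1, Cox7a2l and Ndufa7), 4 with trended robust variance, 0 without a filter and 1 from the 4 arrays of the 0.6 µg set alone, and leaving out 1 array gave 0 to 2. For the difference between the effects, 1 member (Atp5f1) was called in place of 0 under normexp, quantile normalization, the deposited values, probes well above background on all 8 arrays, trended robust variance and slide as a random block, and leaving out 1 array gave 0. The member median after miR-193b was 0.099 in the deposited values and 0.088 to 0.381 with 1 array left out. After miR-365a it stayed within 0.056 to 0.123. Over all genes, calls after miR-193b ran from 0 to 1031 and after miR-365a from 601 to 3748, against 522 and 2829. Without the filter they were 11 and 1055 of 30139. The causes were not tested. No paired analysis was possible because the labels give no replicate numbers, and slide served as the block instead. The precision is limited by 2 arrays a group, and Ndufa4l2 lies at background in the 0.2 µg set.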
